A study of Arabidopsis thaliana with 66 samples.

Results

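Petals of wild-type Col-0 flowers at stage 12 were compared with each of the other dissected organs of the same stage, the sepals, stamens and carpels, and the genes higher or lower in petals than in all 3 of them are described here. The comparison rests on 12 of the 66 arrays of the series, 3 from each organ. The study measured Arabidopsis thaliana flowers, floral organs, pedicels and mature pollen on ATH1 arrays with 1 colour, 3 arrays to each of 22 groups. Besides stage 12 petals, sepals, stamens and carpels, the groups used here are the same 4 organs at stage 15, whole Col-0 flowers at stages 9, 10/11, 12 and 15, and stage 12 equivalent flowers of 7 mutants in the Col-0 background (ag-12, ap1-15, ap2-6, ap3-6, clv3-7, lfy-12 and ufo-1), all from plants grown on soil in continuous light at 23 °C and 65% humidity. The labels do not say whether replicate arrays came from separate plants, and they give no number of plants pooled for an array. Each p-value thus measures only the spread between replicate arrays, pooled in 1 fit over all 66 arrays of the 22 groups. Groups not compared here, which are pedicels, mature pollen and long-day flowers, enter that spread too.

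Petals form between the sepals and the stamens. Their identity is set by MADS-box transcription factors together with AP2, they need AP3 and the UFO protein that activates it, and AG keeps petal fate out of the inner flower. During the last part of bud growth petal cells stop dividing and enlarge, the walls loosen, the epidermal cells become conical and are covered by a ridged cuticle, and the plastids of the white blade lose their chlorophyll. Arabidopsis petals carry flavonol glycosides, which are colourless to the eye.

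A probe set was called different at a limma adjusted p below 0.05 and a difference of at least 2-fold on the scale of log2(signal + 11.3). The signal is the authors' MAS5 intensity, and a signal of 22.6 served as the floor. An organ is called below the floor where all 3 of its arrays lie at or under it, and a fold against it is then a lower bound. Of 17646 probe sets tested, petals were higher than sepals in 1456 (8.25%) and lower in 2053 (11.6%). Against stamens 2922 were higher (16.6%) and 2391 lower (13.5%), and against carpels 1120 were higher (6.35%) and 1518 lower (8.6%). Higher than in all 3 organs were 294 probe sets (1.67%), and lower than in all 3 were 89 (0.504%). Of these members, 154 and 42 pair with 1 gene in the annotation used, 27 and 8 of them with a gene symbol, and only such probe sets are named. The remainder pair with several genes (4 and 2) or with none (136 and 45).

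The members were chosen on these 12 arrays, so how far their petal arrays lie from the others is given as a description. All 3 petal arrays lay above all 9 other organ arrays for 293 of the 294 higher probe sets, and below them for 89 of the 89 lower ones, and the shares of all probe sets tested in which they do are 9.51% and 3.77%. The exception was AT4G15690, at 40.6, 63.4 and 46.4 in petals, with 1 sepal array at 45.8 among sepal values that otherwise reached 9.11. At least 4-fold against each organ were 61 higher and 12 lower members, and at least 8-fold 10 and 2. The organ closest to petals was the carpel for 124 of the 294, the stamen for 87 and the sepal for 83. For the lower members it was the carpel for 35, the stamen for 33 and the sepal for 21. In 20 of the 294 all 3 other organs lay below the floor, and in 41 of the 89 the petals did. Members near the threshold were AT5G55400 and AT5G39785, with a smallest log2 difference of 1.003 and 1.005 just inside it, and AT1G75290 and AT1G52670, at 0.995 and 0.994 just outside. On the lower side AT2G31110 and AT3G28220 were inside at 1.004 and 1.014 below the nearest organ, and AT4G16563 and AT3G62550 outside at 0.984 and 0.968.

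The labels were checked against markers of the other organs. Of 8 stamen and pollen marker genes, 7 were called lower in petals than in stamens, and their summed signal was 202 to 258 in petals, against 132 to 170 in sepals, 5099 to 5430 in stamens and 32.6 to 44.5 in carpels. Of these markers 6 lay below the floor in petals. Those above it were PLIM2a, an actin-binding LIM protein of pollen, at 75.97, 83.7 and 76.5 in petals, against 1473, 1688 and 1493 in stamens, and AtVEX1, a SWEET family sugar transporter gene of the pollen vegetative cell, at 135, 139 and 96.8 in petals, against 1846, 1997 and 2039 in stamens. Both were called higher in petals than in carpels, the only marker calls of that kind, and the part of stamen or pollen RNA in the petal values was not tested. Of 4 carpel and ovule markers, 3 were called lower in petals than in carpels and 3 lay below the floor in petals, with a summed signal of 36.4 to 51.2 in petals, against 1008 to 1108 in carpels. In such bulk samples fewer cells of a type and less RNA per cell cannot be told apart. The 12 arrays had 12827 to 13704 probe sets above the floor, 8.37% to 12.2% of the signal in the 100 brightest, and replicate correlations of 0.989 or more across probe sets.

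The genes that stood highest above every other organ mostly carry only a locus number. AT4G24140, a member of the cuticle and wax list, had signals of 1016, 1079 and 1128 in petals, against 42.1, 49.1 and 42.3 in sepals, 30.98, 17.1 and 31.5 in stamens, and 18.6, 22.5 and 20.6 in carpels. The petal arrays were the highest and the carpel arrays lay below the floor, which makes the petal level at least 47.5-fold higher than in carpels and 19.5-fold higher than in sepals, the nearest organ (log2 difference 4.28 ± 0.13, SE, adjusted p = 2.23e-35). AT4G13210 followed, with 1156, 961 and 857 in petals, against 23.3, 19.2 and 36.4 in sepals, 49.3, 34.2 and 51.7 in stamens, and 22.9, 22.7 and 28.6 in carpels. AT2G17845 had 189, 168 and 178 in petals, against 1.66, 1.31 and 1.10 in sepals, 5.99, 1.06 and 5.54 in stamens, and 0.33, 0.59 and 1.19 in carpels. AT1G70720 had 1119, 1139 and 1099 in petals, against 10.4, 13.2 and 12.4 in sepals, 77.3, 97.6 and 113 in stamens, and 19.4, 23.4 and 17.00 in carpels. In each of these 3 genes the lowest petal array exceeded the highest array of any other organ, and AT2G17845 was below the floor in all 3 other organs. Behind them came AT5G50335, at 509 ± 98.8 in petals (here and below ± is the SD over the 3 arrays), AT3G56260 at 367 ± 7.48, AT4G38950 at 663 ± 20.5 and AT5G55720 at 1400.0 ± 34.9. Their smallest log2 differences from another organ were 3.24, 3.21, 3.13 and 2.80, in that order.

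**Figure D1:**
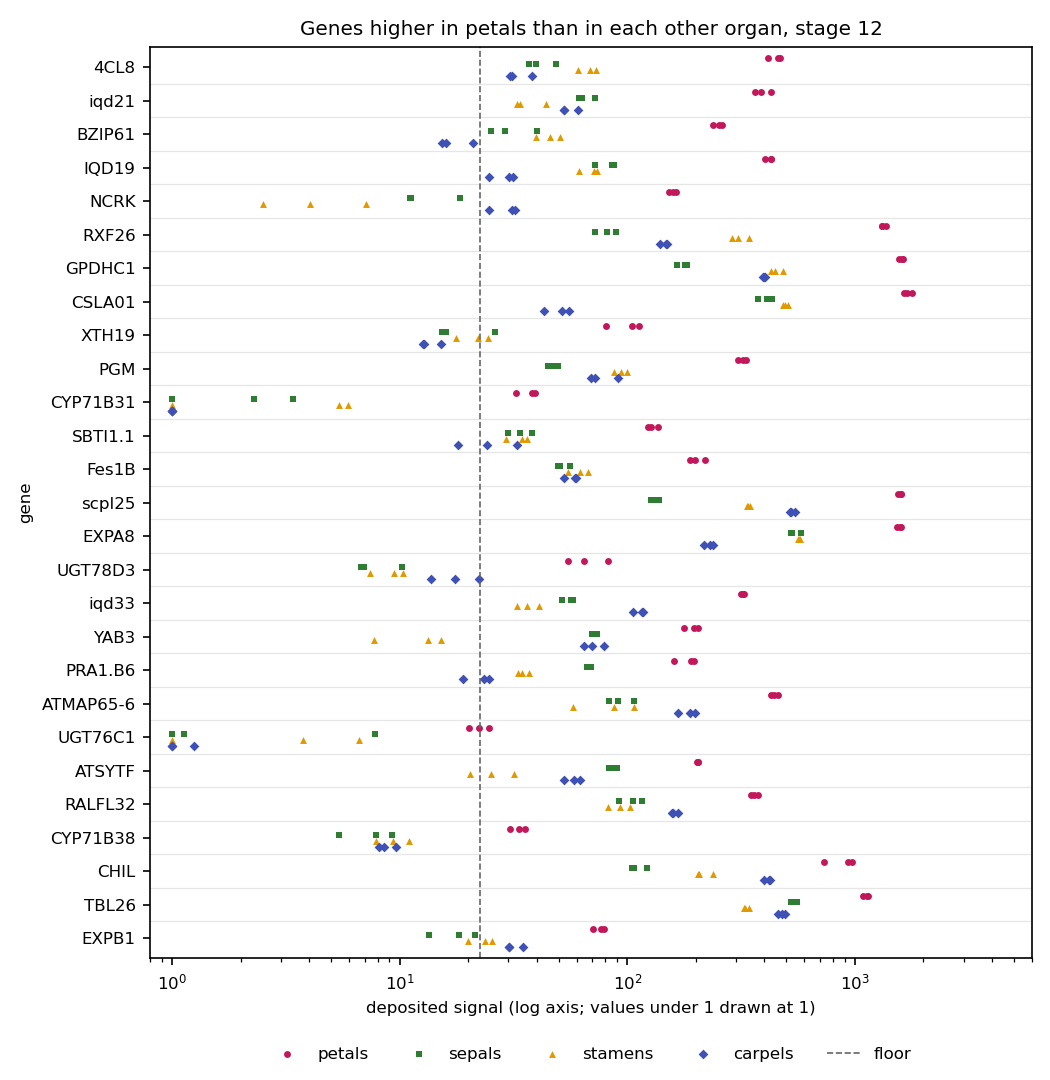
Deposited signal of the 27 petal-higher genes that have a symbol, on a log axis, with 1 row per gene and 1 point per array (petals, sepals, stamens and carpels, from the top of each row to its foot). The dashed line is the floor of 22.6. In every row the 3 petal points lie to the right of all 9 others, and the rows run from the largest to the smallest difference from the nearest organ.

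Several genes that act on the cell wall were members. EXPA8, an alpha-expansin that loosens walls of growing cells, had signals of 1531, 1574 and 1589 in petals, against 577, 529 and 523 in sepals, 567, 563 and 571 in stamens, and 238, 231 and 216 in carpels. The petal arrays formed a narrow group 2.72-fold above stamens, the nearest organ (log2 1.45 ± 0.07, adjusted p = 6.69e-26), and 6.58-fold above carpels. EXPB1, a beta-expansin gene, had 70.6, 78.7 and 76.4 in petals, against 30.3, 34.9 and 30.1 in carpels, the nearest organ. Its log2 difference of 1.01 ± 0.13 sat at the 2-fold threshold and was no longer called without petal array B or C or without carpel array A or C (0.98 to 1). Of the 15 expansin genes tested, 4 were higher and 2 lower in petals than in sepals (26.7% and 13.3%, against 8.25% and 11.6% of all probe sets). Against stamens 5 were higher and 4 lower (33.3% and 26.7%, against 16.6% and 13.5%). Against carpels 4 were higher and none lower (26.7% higher, against 6.35% of all), where 2 were higher without petal array C or without carpel array C. EXPA15, at 301 ± 5.21 in petals, was higher than in sepals (73.8 ± 5.92) and stamens (81.4 ± 4.99) while carpels had 318 ± 19.4. EXPB3 was likewise 453 ± 11.8 in petals, against 93.7 ± 3.87 in sepals and 96.3 ± 8.94 in stamens, with 368 ± 9.96 in carpels. In contrast EXLA1, an expansin-like gene, was 55.5 ± 2.33 in petals, against 468 ± 39.8 in sepals and 161 ± 16.1 in stamens, and was called lower than both.

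CSLA01, a cellulose synthase-like gene of the family that makes mannan backbones, had 1640.2, 1781 and 1699.5 in petals, against 375, 432 and 411 in sepals, 506, 492 and 482 in stamens, and 55.7, 43.2 and 51.8 in carpels. Petals were highest in every array, 28.00-fold above carpels and 3.40-fold above stamens (log2 1.77 ± 0.12, adjusted p = 4.09e-19). TBL26, of the trichome birefringence-like family of wall polysaccharide O-acetyltransferases, had 1144, 1090.2 and 1129 in petals, against 523, 535 and 554 in sepals, 326, 329.5 and 341 in stamens, and 493, 479 and 459.6 in carpels, with sepals nearest (log2 1.05 ± 0.08, adjusted p = 1.45e-17). XTH19 encodes a xyloglucan endotransglucosylase/hydrolase, an enzyme that cuts and rejoins xyloglucan chains. It had 105, 112 and 80.4 in petals, against 15.4, 26.1 and 15.9 in sepals, 22.2, 24.3 and 17.6 in stamens, and 12.7, 12.8 and 15.2 in carpels, so that petals were 3.37-fold above stamens and at least 4.39-fold above carpels. Another gene of the same enzyme family, EXGT-A3, was lower in petals than in all 3 organs and is described with the lower members. Of the 6 genes of this family tested, 2 were higher and 1 lower than in sepals (33.3% and 16.7%, against 8.25% and 11.6% of all probe sets). Against stamens 2 were higher and 3 lower (33.3% and 50%, against 16.6% and 13.5%). Against carpels 1 was higher and 3 lower (16.7% and 50%, against 6.35% and 8.6%). The endoglucanase gene GH9B7 was 756 ± 36.05 in petals, above sepals (208 ± 4.68) and stamens (210.4 ± 9.57), whereas against 421 ± 19.4 in carpels its log2 difference of 0.83 did not reach 2-fold. COB, a glycosylphosphatidylinositol-anchored protein needed for oriented cellulose deposition, was 440.0 ± 4.48 in petals and called higher than in stamens alone (106 ± 13.5).

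Most of the few flavonoid synthesis genes measured were higher in petals than in sepals and stamens, and fewer were higher than in carpels. Of 6 tested genes of the flavonoid synthesis list, 4 were called higher in petals than in sepals (66.7%, where 8.25% of all probe sets were), 5 than in stamens (83.3%, against 16.6%) and 2 than in carpels (33.3%, against 6.35%), and 1 was lower than in carpels. The median log2 differences were 1.77, 1.74 and 0.80, where those of all probe sets were 0.10, 0.18 and -0.06. CHIL, a chalcone isomerase-like protein that enhances flavonoid production, had 934, 730.4 and 966 in petals, against 104, 123 and 106 in sepals, 237, 204 and 206 in stamens, and 399, 419 and 422 in carpels. Petals were highest in every array, and the carpel comparison (log2 1.05 ± 0.20, adjusted p = 5.9e-06) was no longer called without petal array C (0.98). UGT78D3, which adds arabinose to flavonols, had 82.5, 55.1 and 64.6 in petals and lay below the floor in all arrays of the other 3 organs, which puts petals at least 2.98-fold higher. AT1G06000, another gene of this list, was 872 ± 31.5 in petals, against 139 ± 18.02 in sepals, 164 ± 6.91 in stamens and 481 ± 24.97 in carpels, where the log2 difference of 0.84 did not reach 2-fold. DFR, which commits the pathway to anthocyanins, lay below the floor in petals, with 9.42, 12.7 and 10.5.

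**Figure D2:**
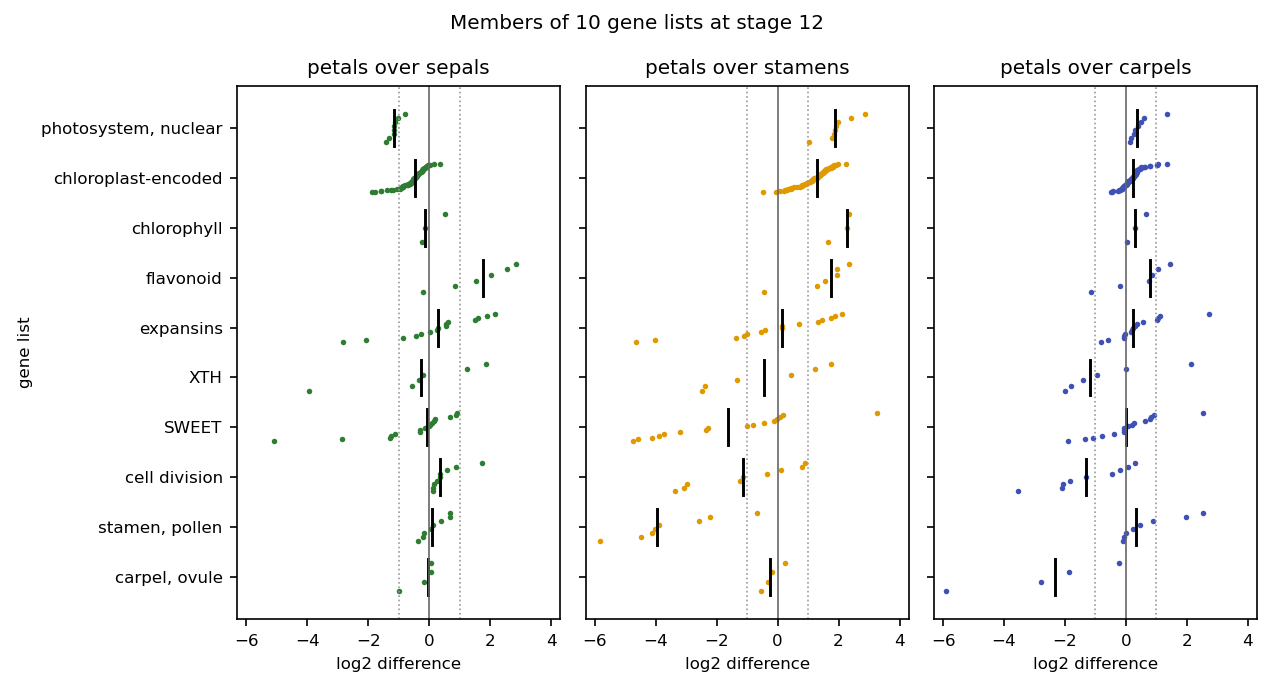
Log2 difference of petals over sepals, stamens and carpels at stage 12, 1 panel per organ, for the tested members of 10 gene lists. Each point is 1 probe set, the black bar is the list's median and the dotted lines mark 2-fold. Photosystem genes lie left of 0 against sepals and right of it against stamens, and flavonoid genes lie mostly right of 0 in all panels.

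Nuclear photosynthesis genes placed stage 12 petals between sepals and stamens. Of 8 tested nuclear photosystem, light-harvesting and Rubisco genes, 7 were lower in petals than in sepals (87.5%, against 11.6% of all probe sets). Higher than in stamens were 8 (100%, against 16.6%), and 1 was higher than in carpels (12.5%, against 6.35%). The median log2 differences from sepals, stamens and carpels were -1.16, 1.90 and 0.35. RCA, Rubisco activase, was 1581 ± 68.8 in petals, against 3460.1 ± 308 in sepals, 412 ± 14.5 in stamens and 1279.9 ± 28.6 in carpels. LHCB4.3, a minor antenna protein of photosystem II, was 883 ± 24.8 in petals, against 2232 ± 119 in sepals, 238 ± 23.1 in stamens and 338 ± 12.4 in carpels, the only gene of the list called higher than in carpels. The 3 tested chlorophyll synthesis genes, CHLI2, CHLM and PORB, were all higher than in stamens, where 16.6% of all probe sets were. None was called against sepals or carpels. CHLM, a methyltransferase of the pathway, was 629 ± 27.8 in petals, against 741 ± 47.2 in sepals, 115 ± 9.36 in stamens and 506 ± 11.6 in carpels. Of 69 chloroplast-encoded genes, 45 were higher and none lower than in stamens (65.2% higher, where 16.6% of all probe sets were). Only 8 were lower than in sepals, which at 11.6% is the share of all probe sets too, and 4 were higher than in carpels (5.8%, against 6.35% of all). Without petal array C, or without carpel array C, 2 were higher than in carpels.

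Of 5 tested members of the cuticle and wax list 1, AT4G24140, was higher than in all 3 organs, as given above. AT5G33370 reached 3263, 3562 and 4102 in petals, against 252, 324 and 324 in sepals, 1857, 1856 and 1936 in stamens, and 259.6, 239 and 235 in carpels, which is 11.8-fold above sepals and 14.2-fold above carpels, while its log2 difference from stamens, 0.94 ± 0.13, stayed under 2-fold. WSD1, a wax ester synthase, lay below the floor in petals and averaged 436 ± 11.2 in carpels, at least 19.3-fold higher there. SHN3, an AP2-type regulator of cutin genes, was 35.4 ± 4.92 in petals and AT4G13840 lay below the floor in petals, and neither was called against any organ.

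Several members with a symbol encode enzymes of metabolism. 4CL8, of the 4-coumarate:CoA ligase-like acyl-activating enzymes, had 416, 468 and 460.1 in petals, against 39.5, 36.9 and 48.5 in sepals, 60.7, 68.8 and 72.6 in stamens, and 30.6, 31.01 and 37.98 in carpels, with no overlap between petals and any other organ (smallest log2 difference 2.55 ± 0.15, adjusted p = 2.67e-22). RXF26 had 1309, 1369 and 1314 in petals and 4.15-fold less in stamens, the nearest organ, at 308, 288 and 344. GPDHC1, a cytosolic glycerol-3-phosphate dehydrogenase, was 1601 ± 33.03 in petals, against 176 ± 9.28 in sepals, 451 ± 28.02 in stamens and 398 ± 5.40 in carpels. PGM (AT1G78050), annotated as a phosphoglycerate mutase, was 319.8 ± 12.4 in petals and 3.16-fold above stamens.

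Among enzymes of large families, 2 of 15 cytochrome P450 genes and 2 of 36 UDP-glycosyltransferase genes tested were higher in petals than in all 3 organs (13.3% and 5.56%, where 1.67% of all probe sets were), and 3 of these 4 lay near the floor. Of the P450 genes 2 were higher and 6 lower than in sepals (13.3% and 40%, against 8.25% and 11.6% of all probe sets). Against stamens 2 were higher and none lower (13.3% higher, against 16.6% of all). Against carpels 2 were higher and 1 lower (13.3% and 6.67%, against 6.35% and 8.6%). The same 2, CYP71B31 and CYP71B38, were the higher ones throughout. CYP71B31, a P450 that hydroxylates the floral terpene linalool, had 38.1, 32.3 and 39.2 in petals and lay below the floor in the other organs, and CYP71B38 had 30.6, 33.2 and 35.5 with the others below the floor too. These levels are only 1.62-fold and 1.46-fold above the floor as a lower bound. Of the UDP-glycosyltransferase genes, 6 were higher and 12 lower than in sepals (16.7% and 33.3%, against 8.25% and 11.6% of all probe sets). Against stamens 8 were higher and 4 lower (22.2% and 11.1%, near the 16.6% and 13.5% of all), and against carpels 8 were higher and 2 lower (22.2% and 5.56%, against 6.35% and 8.6%). UGT76C1, which inactivates cytokinins by N-glucosylation, joined UGT78D3 above all 3 organs, but at 24.7, 20.1 and 22.2 in petals, at the floor itself, its fold cannot be set. The serine carboxypeptidase-like gene scpl25 was 1574 ± 26.2 in petals, against 132 ± 5.90 in sepals, 340.3 ± 4.98 in stamens and 529 ± 14.3 in carpels. SBTI1.1, a subtilisin-like protease gene, was 129 ± 6.90 in petals and no more than 38.00 in any array of the other organs.

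Regulators of petal growth were sparsely measured, and the MADS-box genes that set petal identity were not analysed here. Of 36 genes on the petal identity and growth list, 7 have a probe set that pairs with them alone, and 6 of these were tested. BPEp, a bHLH transcription factor that limits the size of petal cells, had 1018, 949 and 925 in petals, against 143, 111 and 128 in sepals, 937, 955 and 961 in stamens, and 47.1, 55.1 and 67.6 in carpels. It was 7.08-fold above sepals and 14.5-fold above carpels, and its petal and stamen arrays overlapped (log2 0.02 ± 0.13, adjusted p = 0.913). HWS, an F-box protein that restrains sepal and petal growth and fusion, was 63.3 ± 6.37 in petals and lower than in stamens (330.3 ± 12.1). RBE and PTL, transcription factors of early petal initiation, and JAG, which promotes growth of organ margins, lay below the floor in petals. RBE and JAG were called lower than in carpels, which had 26.3 ± 2.68 and 44.5 ± 5.09, and PTL was not called against any organ. ROXY1, a glutaredoxin that acts early in petal development, was below the floor in all 4 organs.

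Other signalling and regulatory genes were higher in petals than in all 3 organs. YAB3, a YABBY transcription factor of the abaxial side of lateral organs, had 177, 197 and 205 in petals, against 69.7, 73.2 and 71.5 in sepals, 15.2, 13.4 and 7.68 in stamens, and 69.9, 64.7 and 79.2 in carpels, with petals 2.46-fold above sepals and the stamens below the floor. BZIP61, a basic leucine zipper factor, was 250.5 ± 11.2 in petals, against 31.4 ± 7.80 in sepals and 45.2 ± 5.56 in stamens, with carpels below the floor. Of 14 tested genes with an IQD symbol, calmodulin-binding proteins that associate with microtubules, 3 were members (21.4%, where 1.67% of all probe sets were), a family counted after these values were seen. IQD19 had 427, 427 and 404 in petals, against 85.5, 72.2 and 87.6 in sepals, 73.3, 61.5 and 71.1 in stamens, and 31.3, 30.1 and 24.7 in carpels. The gene iqd21 was 393 ± 32.2 in petals, against 65.4 ± 5.67 in sepals, 36.8 ± 6.28 in stamens and 55.3 ± 4.54 in carpels, and iqd33 was 321 ± 6.38 in petals, with carpels nearest at 113 ± 6.11. ATMAP65-6, a microtubule-associated protein, was 444 ± 15.4 in petals, against 93.5 ± 12.2 in sepals, 83.8 ± 24.6 in stamens and 184 ± 15.8 in carpels. RALFL32, of the RALF family of secreted peptides, was 361 ± 13.97 in petals and 161 ± 5.22 in carpels, the nearest organ. NCRK, a receptor-like kinase of endosomes, was 158 ± 5.70 in petals, with sepals and stamens below the floor and carpels at 29.2 ± 4.07. The remaining symbols were Fes1B, a nucleotide exchange factor of Hsp70 (202 ± 15.8 in petals, 2.94-fold above stamens), PRA1.B6 of the prenylated Rab acceptor family (182 ± 18.99, 2.43-fold above sepals) and ATSYTF of the synaptotagmin family (203 ± 0.78, 2.20-fold above sepals).

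Among genes lower in petals than in every other organ, largest was the difference of AT1G48750, at 60.98, 65.1 and 60.4 in petals, against 708, 826 and 800.5 in sepals, 1611, 1618 and 1674 in stamens, and 1695, 1746 and 2000.1 in carpels, so that the nearest organ was 3.42 log2 units higher than petals. AT1G09310 averaged 18.6 ± 1.15 in petals, against 195 ± 11.3 in sepals, 282 ± 3.40 in stamens and 1968 ± 99.6 in carpels. THI2.1, a thionin (a small antimicrobial defence peptide), had 74.7, 72.9 and 95.3 in petals, against 402, 296 and 365 in sepals, 935, 989 and 976 in stamens, and 3831, 4098 and 4233 in carpels. All petal arrays lay under the lowest sepal array, and the level in carpels was 44.3-fold that of petals. BSMT1, the methyltransferase that makes volatile methyl benzoate and methyl salicylate, lay below the floor in petals at 17.2, 20.3 and 16.6, against 369.5, 375 and 385 in sepals, 145, 155 and 126 in stamens and 98.6, 94.5 and 88.8 in carpels.

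**Figure D3:**
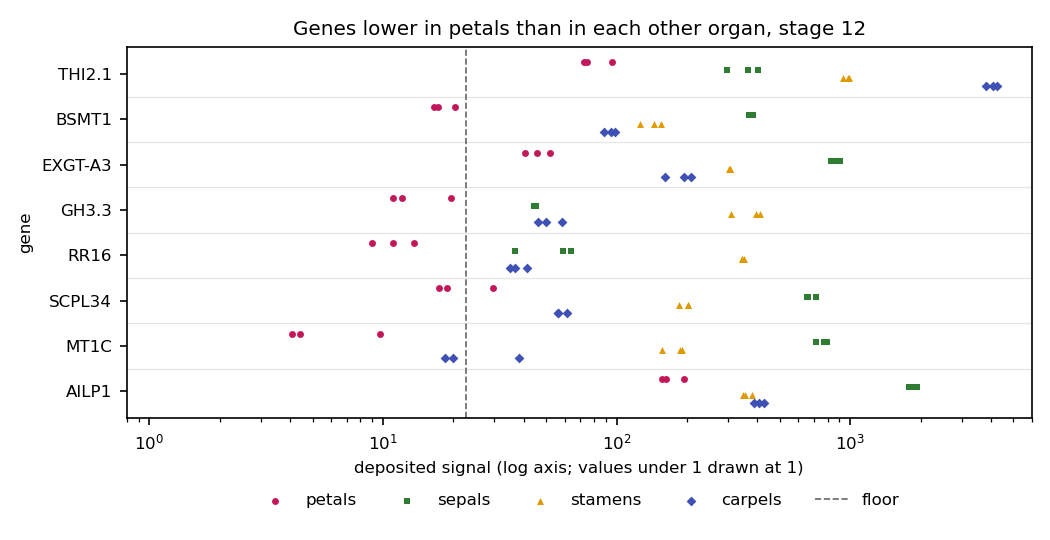
Deposited signal of the 8 petal-lower genes that have a symbol, drawn as in the plot of petal-higher genes. In each row the 3 petal points lie to the left of all 9 others, and 4 of the 8 genes have all 3 petal points left of the floor.

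The other lower genes with a symbol belong to several families. EXGT-A3, a xyloglucan endotransglucosylase/hydrolase, had 52.1, 40.4 and 45.8 in petals, against 854, 829.8 and 903 in sepals, 307, 304 and 307 in stamens, and 193, 209 and 161 in carpels. Petals were lowest throughout, and the nearest organ, carpels, was 3.46-fold higher. GH3.3, which conjugates auxin to amino acids, lay below the floor in petals, at 12.1, 11.1 and 19.6, against 44.7, 44.2 and 45.4 in sepals, 409.7, 394 and 309 in stamens and a mean of 51.5 ± 6.16 in carpels. RR16, a type-A response regulator induced by cytokinin, was also below the floor in petals, and averaged 53.3 ± 14.6 in sepals, 348 ± 4.17 in stamens and 37.7 ± 3.23 in carpels. MT1C, a metallothionein that binds metal ions, had 4.44, 4.09 and 9.72 in petals, against 769.9, 799 and 716 in sepals, 186, 191 and 157 in stamens, and 19.9, 18.5 and 38.2 in carpels. Its highest petal array lay below its lowest carpel array, but the carpel log2 difference of -1.06 ± 0.15 was no longer called without petal array A or B (-0.99 and -0.98) or without carpel array C (-0.82). SCPL34, a serine carboxypeptidase-like gene, had 18.9, 17.4 and 29.6 in petals, against means of 677 ± 30.5 in sepals, 197 ± 10.3 in stamens and 57.9 ± 3.07 in carpels, and was not called without petal array B (-0.98). AILP1 was 171 ± 19.95 in petals, against 1845 ± 71.8 in sepals, 362 ± 17.4 in stamens and 409 ± 19.8 in carpels, and was not called without petal array B (-0.98) or stamen array C (-1).

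Several cell division and sugar transporter genes were lower in petals than in some of the organs. Of 9 tested genes of the cell division list, 5 were lower in petals than in stamens and 5 lower than in carpels (55.6% each, where 13.5% and 8.6% of all probe sets were). Higher than in sepals was 1 (11.1%, against 8.25% of all). The median log2 differences were -1.13 from stamens, -1.30 from carpels and 0.34 from sepals. AUR1, an Aurora kinase of mitosis, was 48.1 ± 0.53 in petals, against 456 ± 30.7 in stamens and 241 ± 9.56 in carpels, with 42.9 ± 5.28 in sepals. TOPII, a DNA topoisomerase, lay below the floor in petals, sepals and stamens and was 316 ± 26.3 in carpels. The gene higher than in sepals, CKS (AT1G53000), is known as a CMP-KDO synthetase for wall pectin, not as a division gene. The sugar transporter list had 16 tested genes, all of the SWEET family. Lower in petals than in sepals were 5 (31.2%, against 11.6% of all probe sets), 8 were lower than in stamens (50%, against 13.5%) and 3 lower than in carpels (18.8%, against 8.6%). SWEET17 was higher than in stamens and AtVEX1 higher than in carpels (6.25% each, against 16.6% and 6.35%). SWEET11 had 23.5, 26.6 and 35.4 in petals, against 1304, 1303 and 1371 in sepals, 183, 180.3 and 173 in stamens, and 21.4, 18.7 and 24.1 in carpels. Its petal arrays overlapped those of carpels alone. SWEET17, a fructose transporter of the vacuole, had 202 ± 10.2 in petals, with stamens below the floor. Of 2 tested stomata and guard cell genes, 1 was lower than in sepals and 1 lower than in carpels (50% each, against 11.6% and 8.6% of all). Neither was called against stamens, where their summed signal was 15.4 to 25.0, against 14.4 to 21.2 in petals. FMA, which ends stomatal divisions, lay below the floor in petals and was 124 ± 17.02 in sepals. SPCH, which starts the lineage, lay below the floor in petals and was 67.01 ± 16.5 in carpels.

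The same contrasts were then measured in stage 15 organs. Their values are not among those the members were chosen by, although these arrays share the fit's variances, the floor and the filter on dim probe sets with that choice. Of the 294 petal-higher probe sets, 173 were again higher than in sepals at stage 15 (58.8% of them, where 8.86% of all probe sets tested were), 70 higher than in stamens (23.8%, against 3.89%) and 105 higher than in carpels (35.7%, against 12.8%). Lower than in carpels at stage 15 were 48 of them (16.3%, where the share of all was 20.8%). Higher than in all 3 organs again were 43 (14.6%, where 1.29% of all probe sets were). Called the same way against none were 105 (35.7%). The share of all probe sets for that last count is not given, so it is not read as a trait of the members. The medians of the 294 were 1.36, 0.40 and 0.48 on the log2 scale over sepals, stamens and carpels, where those of all probe sets were -0.02, 0.10 and -0.16. Of the 89 petal-lower probe sets, 37 were again lower than in sepals (41.6%, against 8.72%), 17 lower than in stamens (19.1%, against 7.1%) and 27 lower than in carpels (30.3%, against 20.8%), while 27 were higher than in carpels, a comparison in which 12.8% of all were higher. Lower than in all 3 organs again were 4 (0.198% of all probe sets were). The counts for the lower list turned on how dim signals were handled and are given without a pseudocount in the section on processing.

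Some members had a higher mean in stage 15 petals than in stage 12 petals. AT1G70720 averaged 1877 ± 309 in stage 15 petals, against 32.1 ± 8.15 in sepals, 393 ± 16.4 in stamens and 51.3 ± 4.75 in carpels of that stage. EXPA8 was 1833 ± 184 in stage 15 petals, against 26.6 ± 1.74 in sepals and 144 ± 3.38 in carpels, but stamens had 1974 ± 29.7 and the petals were not called against them (log2 -0.11 ± 0.07, adjusted p = 0.194). CYP71B31 was 2564 ± 368 in petals and 1389 ± 135 in stamens at stage 15, against 36.5 ± 3.69 in petals at stage 12. CYP71B38 was 465 ± 26.3 in stage 15 petals, called above all 3 organs of that stage, against 33.1 ± 2.48 in stage 12 petals. Most members went the other way. The petal mean was higher at stage 15 than at stage 12 in 52 of the 294, and 37 lay below the floor in stage 15 petals. AT4G24140 lay at 18.8 ± 4.77 in stage 15 petals, against 1074 ± 56.3 in stage 12 petals, RXF26 at 6.28 ± 3.49, against 1330.5 ± 33.1, and UGT78D3 at 2.17 ± 2.61, against 67.4 ± 13.9. Of the 89 lower members, 82 had a higher petal mean at stage 15 than at stage 12, among them AILP1 (2057 ± 319 at stage 15, against 171 ± 19.95) and EXGT-A3 (836 ± 30.9, against 46.1 ± 5.83). These counts share the stage 12 petal arrays with the choice of members, so they are given as a description with no test. The shares of all probe sets tested that changed in these ways are not given, so the counts are not read as a trait of the members.

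**Figure D4:**
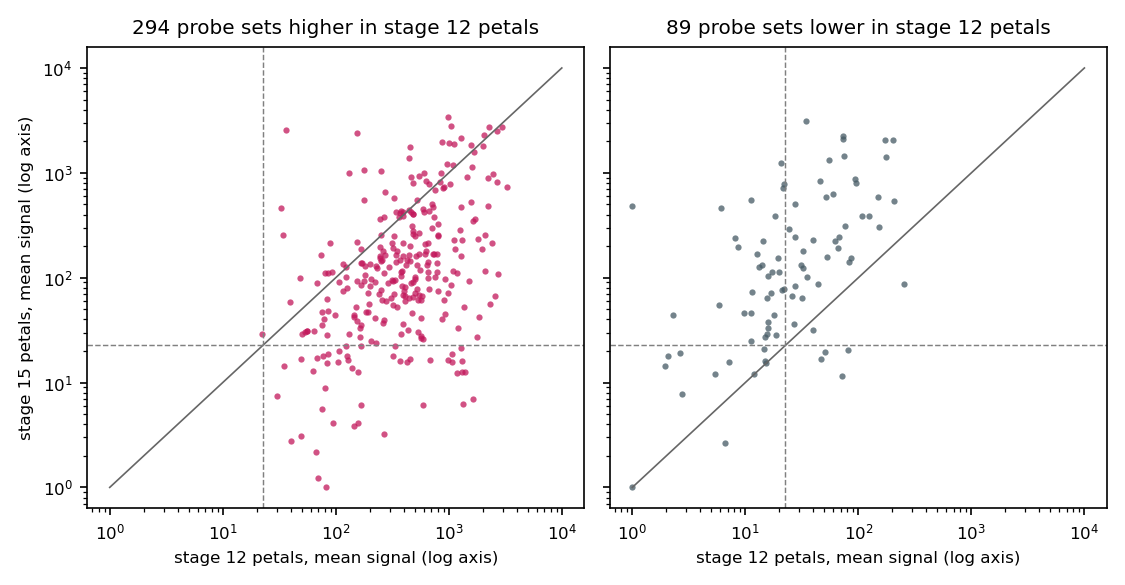
Mean signal of stage 15 petals (vertical) against stage 12 petals (horizontal), both on log axes with values under 1 drawn at 1, for the 294 petal-higher and the 89 petal-lower probe sets. The solid line marks equal signal and the dashed lines the floor. In the left panel 52 of 294 points lie above the line, and in the right panel 82 of 89.

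Some members were called on opposite sides of an organ at the 2 stages. Among the 294 petal-higher probe sets this was so for 4 against sepals (1.36%), 3 against stamens (1.02%) and 48 against carpels (16.3%), where 8.72%, 7.1% and 20.8% of all probe sets were lower in petals at stage 15. Among the 89 petal-lower probe sets it was so for 5, 6 and 27 (5.62%, 6.74% and 30.3%), where 8.86%, 3.89% and 12.8% of all were higher in petals. The genes given next were picked for such opposite calls, so their values are a description with no test. RXF26 was 6.28 ± 3.49 in petals, against 178 ± 5.70 in carpels at stage 15, whereas at stage 12 it was 1330.5 ± 33.1 in petals, against 145 ± 5.73 in carpels. The log2 difference of petals over carpels was thus 6.55 ± 0.18 units lower at stage 15 than at stage 12. RR16 showed the opposite change, with petals over carpels 4.93 ± 0.16 log2 units higher at stage 15, at 546 ± 28.9 in petals, against 28.5 ± 4.28 in carpels. Against stamens XTH19 was at 44.3 ± 10.3 in petals, against 1017 ± 14.1 in stamens at stage 15. The difference was 5.98 ± 0.22 log2 units lower than at stage 12.

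In whole flowers stage 12 was the most frequent peak of the petal-higher genes. Their highest mean was at stage 9 for 51 of the 294 (17.3%, where 36.3% of all probe sets tested had theirs). It was at stages 10/11 for 72 (24.5%, against 17.2%), at stage 12 for 101 (34.4%, against 15.1%) and at stage 15 for 70 (23.8%, against 31.5%). EXPA8 followed 71.6, 171, 457 and 658 in flowers of stages 9, 10/11, 12 and 15. RXF26 ran in the opposite order, at 1032, 846, 653 and 98.0. The petal-lower probe sets had their highest mean at stage 15 in 56 of 89 (62.9%, where the share of all was 31.5%). Whole flowers mix all organs in proportions that change with stage, and the part of this in the flower values was not tested.

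Mutant flowers were compared, as whole flowers, with stage 12 Col-0 flowers. In such samples fewer or more petals per flower and a change of expression within an organ cannot be told apart. The labels describe lfy-12 as making leaf-like flowers, ap1-15 and ap2-6 as lacking sepals and petals, ap3-6 as lacking petals and stamens, ufo-1 as having filaments in their place, ag-12 as bearing sepals and petals where stamens and carpels would be, and clv3-7 as having more organs. Among the 294 petal-higher probe sets, 54 were lower in ap1-15 (18.4% of them, where 3.51% of all were), 57 in ap2-6 (19.4%, against 4.97%), 44 in ap3-6 (15%, against 6.21%), 24 in ufo-1 (8.16%, against 4.24%) and 44 in lfy-12 (15%, against 7.35%). Called higher were 3 in lfy-12 (2.45% of all were), 1 in ap1-15 (2.06%), and none in ap2-6 (1.46%), ap3-6 (1.11%) or ufo-1 (0.844%). In ag-12, 24 were higher (8.16%, against 1.05%) and 1 was lower (6.02% of all were). In clv3-7 none was called in either direction (0.425% of all were higher and 0.272% lower). Of the 294, 206 (70.1%) were lower in none of these 5 mutants (ap1-15, ap2-6, ap3-6, ufo-1 and lfy-12), and 12 (4.08%) were lower in all 5, where the shares of all probe sets tested were 90.2% and 2.09%.

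The genes called lower in all 5 of these mutants included some of the strongest members. AT1G70720 averaged 23.03 ± 1.29 in ap3-6, 19.9 ± 3.07 in ap1-15, 13.4 ± 9.91 in lfy-12, 16.6 ± 8.11 in ap2-6 and 24.8 ± 0.62 in ufo-1, against 175 ± 8.43 in stage 12 flowers (the smallest of these log2 differences was -2.36 ± 0.21, adjusted p = 1.53e-14), and it was 255 ± 22.9 in ag-12. 4CL8 ranged between 19.4 in lfy-12 and 35.9 in ufo-1, against 109 ± 1.72 in stage 12 flowers, and was 220.1 ± 14.1 in ag-12, where the log2 difference of 0.94 ± 0.15 did not reach 2-fold. IQD19 was lower in all 5 as well, with 32.8 ± 5.29 in ap3-6, against 138 ± 7.77 in stage 12 flowers. EXPA8 was lower in lfy-12, ap1-15, ap2-6 and ufo-1, at 74.3 ± 9.11 in ap1-15, against 457 ± 22.2 in stage 12 flowers, but in ap3-6 it was 361 ± 33.1 and was not called.

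Members called higher in ag-12 flowers included CSLA01 and AT4G24140. CSLA01 was 1626 ± 99.3 in ag-12, against 744 ± 42.8 in stage 12 flowers (log2 1.12 ± 0.12, adjusted p = 5e-11), while it was lower in ap2-6 (139.8 ± 3.87), ap1-15 (151 ± 9.71), ap3-6 (288 ± 22.7) and lfy-12 (308 ± 20.7). AT4G24140 was 389.7 ± 5.93 in ag-12, and 49.8 ± 5.94 in ap2-6, against 185 ± 10.4 in stage 12 flowers. Higher in ag-12 and lower in at least 1 of the other 5 were 9 of the 294 (3.06%, where 0.17% of all probe sets were), and higher in ag-12 and lower in at least 3 were 4, the same number as among all probe sets tested (0.0227%). All mutants were set against the same stage 12 flower arrays, so these comparisons share their controls.

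**Figure D5:**
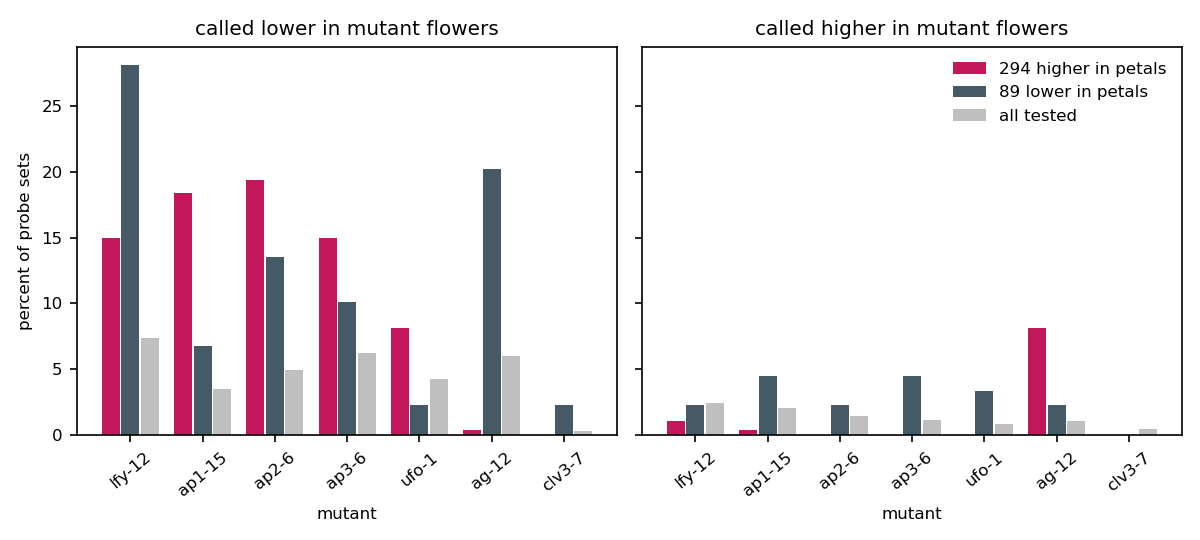
Percent of probe sets called lower (left) and higher (right) in the flowers of 7 mutants than in stage 12 Col-0 flowers, for the 294 petal-higher probe sets, the 89 petal-lower probe sets and all 17646 tested. The petal-higher bars exceed those of all probe sets on the left for ap1-15, ap2-6, ap3-6, ufo-1 and lfy-12, and on the right for ag-12.

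Of the 89 petal-lower probe sets, 25 were lower in lfy-12 (28.1%, where 7.35% of all probe sets were), 18 in ag-12 (20.2%, against 6.02%), 12 in ap2-6 (13.5%, against 4.97%), 9 in ap3-6 (10.1%, against 6.21%) and 6 in ap1-15 (6.74%, against 3.51%). In ufo-1 and in clv3-7 2 each were lower (2.25%, where 4.24% and 0.272% of all were). Higher were 4 each in ap1-15 and ap3-6 (4.49% each, against 2.06% and 1.11% of all) and 3 in ufo-1 (3.37%, against 0.844%). In lfy-12, ap2-6 and ag-12 2 each were higher (2.25%, where 2.45%, 1.46% and 1.05% of all were), and in clv3-7 none (0.425% of all). These counts too turned on how dim signals were handled. Without a pseudocount the lower list held 243 probe sets. Of these, 74 were lower in lfy-12, 57 in ag-12, 36 in ap2-6, 42 in ap3-6, 21 in ap1-15 and 16 in ufo-1. Higher were 17, 10, 12, 18, 27 and 10 of them, in that order, and shares of all probe sets are not given for this setting. THI2.1 fell to 192 ± 4.22 in ag-12 and to 281 ± 11.3 in lfy-12, against 2551 ± 285 in stage 12 flowers. BSMT1 lay at 18.02 ± 4.52 in ap3-6 and at 73.8 ± 7.91 in ufo-1, against 259.5 ± 14.6 in stage 12 flowers, and was also lower in lfy-12 and ag-12. MT1C was lower in ag-12, ap1-15, ap2-6, ap3-6 and lfy-12, at 52.9 ± 3.05 in lfy-12, against 219 ± 16.3 in stage 12 flowers.

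In the genome the petal-higher genes were spread over all chromosomes, at 1.37% to 2.11% of the tested genes of each. Among the 154 genes there were 2 pairs of direct neighbours, AT4G24130 with AT4G24140 and AT5G45950 with AT5G45960, and among the 42 petal-lower genes there was none. Signals in petals were 834 ± 39.1 for AT4G24130, 1036 ± 37.4 for AT5G45950 and 653 ± 22.5 for AT5G45960.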

How the data were processed

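RNA of flowers and floral organs was measured on one-colour ATH1 arrays. The files hold, for each probe set, an untransformed intensity that the authors computed with MAS5, per the submitters' processing notes. The MAS5 version is not given in the sources used here. The trimmed mean of each array (2% left out at each end) was 100.01 to 100.02, so the deposited table is scaled to a common level, and it was used with that scaling. Probe sets carry no read depth, and the 3 arrays per group limit the precision.

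A floor of 22.61 was set at the 40th percentile of the table, and a pseudocount of 11.31 at 0.5 of that floor. From 22810 probe sets 64 controls and 5100 dim ones, which in no group lay above the floor on all arrays, were left out. The other 17646 entered a limma fit (version 3.58.1, R 4.3.3) of log2(signal + 11.31) with 1 mean for each of the 22 groups. Variances were moderated with a trend on 44 residual degrees of freedom (prior 10.6). P-values were Benjamini-Hochberg adjusted within each comparison over all probe sets, and a call needs an adjusted p below 0.05 and 2-fold. A fold is 2 to the power of the fitted difference. This scale understates the change of dim genes, since the pseudocount is added to every signal before the log. Stage 15 minus stage 12 differences are interaction terms of the same fit, given as values for genes picked by their calls at both stages. The sample letters shared between groups do not pair arrays: deviations of arrays with the same letter correlated at -0.038 to 0.047 in 9 pairs of groups and letters.

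Genes are named through probe sets that pair with exactly 1 gene (9810 of those tested), by the platform annotation with symbols of the RefSeq TAIR10.1 gene table. With several probe sets the one brightest over the 12 organ arrays was used. Named are the 20 higher and 15 lower genes with the largest smallest difference from the 3 organs whose arrays do not overlap, tested members of the petal and cuticle lists, up to 4 called members of each other list, and the members called in the most mutants. All members with a symbol, and list members outside this rule, were added after their values were seen. The members and the 27 gene lists were chosen with earlier results of these data known. Lists of families were matched by symbol and synonym, and clone names and cyclophilins were removed from them by name. On the array 8730 probe sets other than controls pair with no gene and 503 with several. A family count therefore covers only the genes that this annotation pairs and names, not all that the array may measure. The arabinogalactan, lipid transfer, 3-ketoacyl-CoA synthase and MYB lists had no probe set paired with 1 gene. The WRKY, NAC, TCP, jasmonate, glucosinolate, terpene and auxin lists held at most 1 member called against all 3 organs in a direction, and those members are named in the text. Promoter motifs were planned but not searched, since no promoter sequences were used here.

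The fit was repeated under other choices. These were thresholds of 1.5-fold and 4-fold, leaving out single arrays, the replicate letter as a block, robust moderation, fits of the compared groups alone, scaling by the 75th percentile or by quantiles, keeping dim probe sets, and a pseudocount of 0 or of the floor itself.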

Additional observations from a re-analysis of the deposited data

Results flagged for a closer look

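For 16 differences from 1 organ, among the genes named, petals were called on opposite sides at the 2 stages, and each is given as the log2 difference at stage 15 minus that at stage 12. The genes were picked by those calls, so a difference between the stages follows from the choice and the values are a description. Against sepals the gene was AT5G52390 (-4.69) and against stamens XTH19 (-5.98). Against carpels the petal excess turned to a deficit in RXF26 (-6.55), AT5G33370 (-5), AT3G05600 (-4.25), iqd33 (-3.56), CHIL (-3.50), SBTI1.1 (-3.39), NCRK (-3.36) and LHCB4.3 (-2.54). It turned the other way, to a petal excess at stage 15, in RR16 (4.93), AT2G36950 (4.29), EXGT-A3 (3.56), MT1C (3.23), AILP1 (3.17) and GH3.3 (2.94).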

How the results depend on the processing

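Counts of calls stayed within 1.5 times the reported value in 280 of 296 recomputations. Without a pseudocount petals were higher than carpels in 1699 probe sets and lower in 2278, and 243 were lower than in all 3 organs, of which 117, 63 and 88 were again lower than sepals, stamens and carpels at stage 15. With a pseudocount equal to the floor 49 were lower than in all 3, of which 20, 9 and 15 were again lower at stage 15, and of the petal-higher probe sets 29 were lower in ap3-6 and 13 higher in ag-12. At 1.5-fold 664 were higher and 227 lower than in all 3 organs, and at 4-fold 61 and 12. Leaving out each array in turn gave 290 to 306 higher and 84 to 91 lower. With the replicate block the counts were 294 and 89, and the block ended no call of a named member. Quantile normalization gave 293 and 76, and under it the calls higher in petals made up 51% of those against stamens and 49.7% of those against carpels, where the reported shares are 55% and 42.5%.

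Among the 65 members covered by the naming rule or added for a symbol, not all of which the text names, 1277 of 1300 calls were kept. None turned, and 23 were lost in 10 genes, 8 of these calls with the pseudocount equal to the floor. Those 8 were the petal-higher UGT76C1 (0.78), CYP71B38 (0.80) and EXPB1 (0.85), and the petal-lower GH3.3 (-0.88), RR16 (-0.83), SCPL34 (-0.86), MT1C (-0.73) and AILP1 (-0.99). Quantile normalization ended the calls of RR16 (-0.97), SCPL34 (-0.78) and AILP1 (-0.94), and division by the 75th percentile that of TBL26 (0.98). The calls lost when 1 array was left out are those given beside EXPB1, CHIL, MT1C, SCPL34 and AILP1. The cause of these changes was not tested. Of 2760 counts over gene lists 2703 stayed within 1.5 times. Signals near the floor limit what can be said of UGT76C1, CYP71B31, CYP71B38 and the 41 petal-lower probe sets whose petals lay below the floor.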
